A study of Mus musculus with 12 samples.

Results

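Heat shock chaperones bind proteins that are unfolded, newly made or damaged, hold them in solution and help them to reach their folded state. HSP70 proteins do this in cycles of ATP hydrolysis started by J-domain proteins of the HSP40 family and reset by exchange factors such as HSP110, HSP90 takes over clients that are close to their final fold, and a chamber of HSP60 with its lid HSP10 folds proteins inside mitochondria. Part of this set is kept at a high level in all cells, and part is switched on by heat shock factors when proteins lose their fold, a response also seen when tissue is digested and cells are sorted. The 10 genes described here were chosen by name as cytosolic and mitochondrial members of this machinery, out of 24346 gene symbols with a value in every library: *Hspa8*, *Hspa1a*, *Hspa1b*, *Hsph1*, *Dnaja1*, *Dnajb1*, *Hsp90ab1*, *Hsp90aa1*, *Hspd1* and *Hspe1*. All 10 had a mean above the minimum of 0.5 FPKM (fragments mapped to a gene, scaled by exon length and by the size of the library).

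The RNA came from group 2 innate lymphoid cells (ILC2s) sorted from mouse lung as CD45+ lineage-negative cells with Thy1.2 and ST2 on their surface. ILC2s are tissue-resident lymphocytes that make type 2 cytokines when the epithelial alarm cytokine IL-33 reaches them. WT mice and mice with a germline loss of the guidance molecule semaphorin 6D (*Sema6d*-/-, 6DKO in the labels) were given PBS or IL-33 through the nose for 3 days, with 3 libraries in each of the 4 groups. The labels give the IL-33 dose as 50 ng and the strain as C57BL/6, while the methods of the study state a higher dose and young adult mice. WT PBS mice carried no deletion and received vehicle, *Sema6d*-/- PBS mice carried the deletion and received vehicle, WT IL-33 mice received the cytokine alone, and *Sema6d*-/- IL-33 mice had both. The deletion is present in every cell of the animal, so a value in ILC2s can reflect loss of semaphorin 6D in any tissue. The sources used here do not say whether the libraries of a group came from separate mice or from pools, so p-values measure the spread between these libraries.

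*Sema6d* itself was read in all 12 libraries. The WT PBS libraries gave 27.6, 46.1 and 37.5 FPKM, and the *Sema6d*-/- PBS libraries 29.0, 22.9 and 19.8 FPKM. With IL-33 the WT libraries gave 19.7, 35.5 and 28.7 FPKM, and those of *Sema6d*-/- 15.4, 13.6 and 13.8 FPKM. The genotypes overlapped under PBS and did not under IL-33, where the *Sema6d*-/- libraries were lower. A value for the whole gene does not show which exons were read, so it does not check the genotype labels.

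ILC2 markers were present throughout. The 14 genes of the ILC2 list summed to between 5917 and 9391 FPKM in a library, led by the transcriptional regulator *Id2* at 1726 to 3238 FPKM. *Gata3*, the master regulator of type 2 lymphocytes, ranged from 295 to 690 FPKM, and *Il1rl1*, which encodes the IL-33 receptor ST2, from 117 to 269 FPKM. Of the 8 T cell genes, *Cd3g* reached 190 to 480 FPKM, while *Cd4* was listed at 0 in all 12 libraries and *Cd3e* did not exceed 9.81 FPKM. *Cd6* reached 24.7 FPKM in WT PBS replicate 1, with a median of 0.0202 FPKM over the libraries. The NK cell list summed to 134 FPKM in *Sema6d*-/- PBS replicate 2, led by *Ncr1* at 58.9 FPKM, and to no more than 7.93 FPKM in any other library. The macrophage list summed to 228 FPKM in *Sema6d*-/- PBS replicate 2, to 435 FPKM in *Sema6d*-/- IL-33 replicate 2 and to 148 FPKM in *Sema6d*-/- IL-33 replicate 3, and to at most 17.1 FPKM elsewhere. Its most abundant gene in the IL-33 libraries named was *Chil3*, at 394 and 83.1 FPKM. In *Sema6d*-/- PBS replicate 2 it was *Lyz2* at 112 FPKM, beside *Chil3* at 51.1 and *Ear2* at 39.8 FPKM, and 7 of the 14 genes of the list were above 1 FPKM there. The receptor gene *Csf1r* did not exceed 0.0718 FPKM in any library.

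The PBS libraries stood apart in precision. They had 7696 to 9287 genes above 1 FPKM, against 9917 to 10081 with IL-33, and among 3617 genes averaging 5 to 20 FPKM, the PBS libraries listed 169 to 641 at 0 and the IL-33 libraries 25 to 50. Libraries of 1 group correlated with each other at 0.761 to 0.818 under PBS and at 0.934 to 0.950 under IL-33. Relative depth, estimated from the steps between low values, spanned a 1.88-fold range over the 12 libraries. It was 0.739 to 0.889 in WT PBS and 0.842 to 0.998 in *Sema6d*-/- PBS. With IL-33 it was 1.0 to 1.392 in WT and 0.968 to 1.119 in *Sema6d*-/-. The SD of the median gene within a group was 0.66 and 0.70 on the log2(FPKM + 1) scale in the PBS groups and 0.29 and 0.28 in the IL-33 groups.

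The chaperone transcripts were abundant in every library, and 2 genes made up most of them. The 10 genes summed to 2348 to 4101 FPKM, which was 0.324% to 0.5005% of all FPKM. *Hspa8* and *Hsp90ab1* together held 74.2% to 84.1% of that sum. By mean level over the 12 libraries the order was *Hspa8* (1758 FPKM), *Hsp90ab1* (694 FPKM), *Dnaja1* (203 FPKM), *Hsp90aa1* (139 FPKM), *Hspe1* (127 FPKM), *Hspd1* (68.9 FPKM), *Dnajb1* (57.1 FPKM), *Hspa1b* (40.7 FPKM), *Hsph1* (25.3 FPKM) and *Hspa1a* (11.8 FPKM). From *Dnaja1* downwards the ranges over libraries of all neighbours in this order overlapped, whereas *Hspa8* and *Hsp90ab1* were separated from each other and from the rest in all 12 libraries. FPKM is a level per length of transcript, so levels of different genes can be set side by side, except where genes share sequence, which makes those of *Hspa1a*, *Hspa1b*, *Hsp90aa1*, *Hspa8* and *Hspd1* in particular uncertain. The 6 most abundant genes varied by 1.69-fold to 2.08-fold between their highest and lowest library, and the other 4 by 4.26-fold (*Dnajb1*) to 36.6-fold (*Hsph1*). The range of *Hsph1* was 3.47-fold without *Sema6d*-/- PBS replicate 3, that of *Dnajb1* 2.80-fold without *Sema6d*-/- PBS replicate 1 and that of *Hspa1a* 12-fold without *Sema6d*-/- IL-33 replicate 3.

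**Figure D1:**
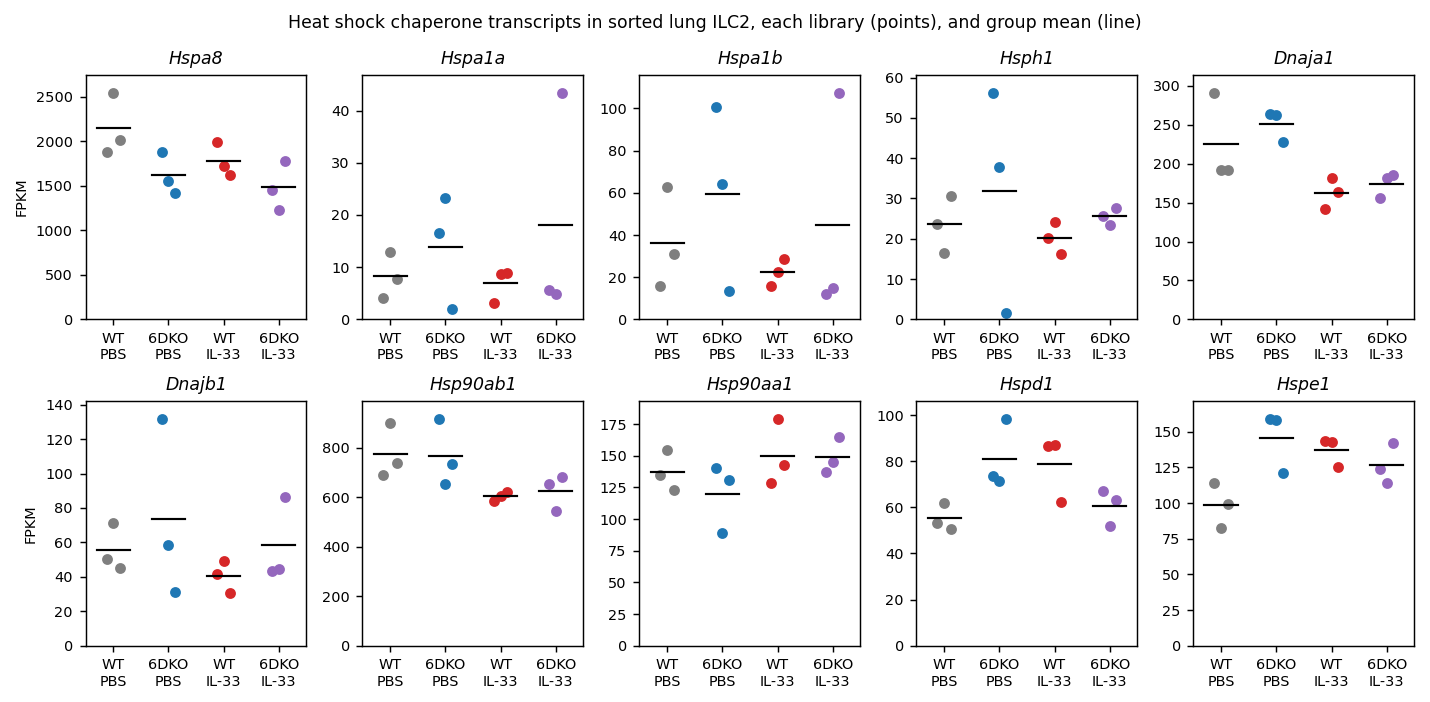
FPKM of the 10 chaperone genes (vertical axes, linear and starting at 0, a separate scale for each gene) in the 4 groups on the horizontal axis, with points for libraries and lines for means of 3. *Dnaja1* spans 142 to 186 FPKM in the 6 IL-33 libraries and 192 to 291 FPKM in the 6 PBS libraries, and single libraries stand apart for *Hspa1a*, *Hspa1b*, *Hsph1* and *Dnajb1*.

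*Hspa8* encodes HSC70, the constitutive cytosolic HSP70. It stood at 1885, 2548 and 2013 FPKM in WT PBS, at 1876, 1553 and 1425 FPKM in *Sema6d*-/- PBS, at 1992, 1719 and 1624 FPKM in WT IL-33 and at 1453, 1224 and 1778 FPKM in *Sema6d*-/- IL-33. The highest library was a WT PBS library, and the WT PBS libraries lay above those of *Sema6d*-/- PBS by a narrow margin (1885 against 1876 FPKM), while the other groups compared overlapped. The difference between the genotypes under PBS was −0.41 (95% interval −0.77 to −0.04, limma adjusted p = 0.33) on the log2(FPKM + 1) scale, and that between IL-33 and PBS averaged over the genotypes was −0.20 (−0.46 to 0.06, limma adjusted p = 0.35). The interval for IL-33 corresponds to 0.729-fold to 1.04-fold. With quantile normalization these differences of *Hspa8* were −0.27 and −0.12.

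*Hspa1a* and *Hspa1b* encode the stress-inducible HSP70, in neighbouring genes that are almost identical. *Hspa1b* read 15.8, 62.7 and 30.8 FPKM in the WT PBS libraries and 101, 64.2 and 13.4 FPKM in those of *Sema6d*-/- with PBS. It read 15.8, 22.4 and 28.7 FPKM in the WT IL-33 libraries and 11.9, 14.9 and 108 FPKM in those of *Sema6d*-/- with IL-33. All 4 groups overlapped, and the highest and the lowest of the 12 values were both from *Sema6d*-/- IL-33. *Hspa1a* stood at 4.09, 13.0 and 7.72 FPKM in WT PBS, at 16.6, 23.3 and 1.94 FPKM in *Sema6d*-/- PBS, at 3.09, 8.75 and 8.87 FPKM in WT IL-33 and at 5.69, 4.88 and 43.4 FPKM in *Sema6d*-/- IL-33. The groups of *Hspa1a* overlapped as well. Both genes were highest in *Sema6d*-/- IL-33 replicate 3 and low in *Sema6d*-/- PBS replicate 3, so libraries of 1 group differed from each other by more than the group means did. The averaged IL-33 difference was −0.61 (−1.98 to 0.76, limma adjusted p = 0.61) for *Hspa1b* and −0.03 (−1.48 to 1.42, limma adjusted p = 0.99) for *Hspa1a*, and the interval of *Hspa1a* runs from 0.358-fold to 2.68-fold. Without *Sema6d*-/- IL-33 replicate 3 the averaged difference of *Hspa1a* was −0.50, and without *Sema6d*-/- PBS replicate 2 it was 0.26. For *Hspa1b* it lay between −1.095 without *Sema6d*-/- IL-33 replicate 3 and −0.319 without *Sema6d*-/- PBS replicate 1. In *Sema6d*-/- IL-33 replicate 3 the epithelial list summed to 109 FPKM, led there by the surfactant gene *Sftpc* at 97.2 FPKM, and the macrophage list to 148 FPKM. The macrophage list was highest in *Sema6d*-/- IL-33 replicate 2, where *Hspa1b* was at 14.9 FPKM, and low in *Sema6d*-/- PBS replicate 1 (5.74 FPKM), where *Hspa1b* was at 101 FPKM. The part of other cells in the chaperone values was not tested.

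*Hsph1* encodes HSP110, a nucleotide exchange factor for HSP70. It stood at 23.6, 16.4 and 30.7 FPKM in WT PBS, at 56.2, 37.9 and 1.53 FPKM in *Sema6d*-/- PBS, at 20.1, 24.2 and 16.2 FPKM in WT IL-33 and at 25.6, 23.3 and 27.8 FPKM in *Sema6d*-/- IL-33. The widest spread was within *Sema6d*-/- PBS, which held both the highest and the lowest library, and all groups compared overlapped. The averaged IL-33 difference was 0.19 (−1.20 to 1.59, limma adjusted p = 0.89) and became −0.51 without *Sema6d*-/- PBS replicate 3 and 0.61 without *Sema6d*-/- PBS replicate 1.

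*Dnaja1* encodes a J-domain protein that delivers clients to HSP70. It read 291, 192 and 193 FPKM in the WT PBS libraries and 263, 263 and 228 FPKM in those of *Sema6d*-/- with PBS. It read 142, 181 and 164 FPKM in the WT IL-33 libraries and 155, 182 and 186 FPKM in those of *Sema6d*-/- with IL-33. All 6 IL-33 libraries were below all 6 PBS libraries, and the genotypes overlapped under both treatments. The averaged IL-33 difference was −0.49 (−0.78 to −0.20, limma adjusted p = 0.040), a level of 0.713-fold, and the exact permutation p within genotypes was 0.005, the smallest that 400 assignments allow. The difference was −0.45 in WT and −0.53 in *Sema6d*-/-, and neither passed alone (limma adjusted p = 0.23 and 0.19), with an interaction of −0.08 (limma adjusted p = 0.97). The WT difference was −0.25 without WT PBS replicate 1, and the interaction lay between −0.28 and 0.02 in fits that left out a library. The averaged call was close to the threshold. It held in 4 of 8 other ways of processing the values and in 4 of 12 fits that each left out a library, with limma adjusted p between 0.030 and 0.14, and the difference was negative in each of them. It was lost without any 1 of the 6 IL-33 libraries (limma adjusted p from 0.0549 to 0.103) and without *Sema6d*-/- PBS replicate 1 or 2 (limma adjusted p = 0.062 and 0.060). In a bulk RNA sample, fewer cells that carry a transcript and less of it in each cell cannot be told apart.

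*Dnajb1* encodes HSP40, the stress-inducible partner of HSP70. It stood at 50.3, 71.3 and 45.4 FPKM in WT PBS, at 132, 58.5 and 31.4 FPKM in *Sema6d*-/- PBS, at 41.6, 49.1 and 30.9 FPKM in WT IL-33 and at 43.6, 44.5 and 86.6 FPKM in *Sema6d*-/- IL-33. The groups overlapped, and the highest *Sema6d*-/- libraries of each treatment were the same libraries that were highest for *Hspa1b*. The averaged IL-33 difference was −0.31 (−1.03 to 0.41, limma adjusted p = 0.63), and it was −0.044 without *Sema6d*-/- PBS replicate 1 and −0.553 without *Sema6d*-/- PBS replicate 3.

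The HSP90 isoforms are the constitutive *Hsp90ab1* and the inducible *Hsp90aa1*. *Hsp90ab1* stood at 691, 899 and 739 FPKM in WT PBS, at 917, 652 and 736 FPKM in *Sema6d*-/- PBS, at 586, 606 and 620 FPKM in WT IL-33 and at 655, 543 and 681 FPKM in *Sema6d*-/- IL-33. The WT groups did not overlap, and those of *Sema6d*-/- did, with an interaction of 0.07 (limma adjusted p = 0.97), which was −0.04 without *Sema6d*-/- PBS replicate 2 and 0.20 without *Sema6d*-/- PBS replicate 1. The averaged IL-33 difference was −0.32 (−0.55 to −0.09), which missed the threshold over all genes (limma adjusted p = 0.090), with an exact permutation p of 0.015 within genotypes. Without *Sema6d*-/- PBS replicate 2 it was −0.375 and passed (limma adjusted p = 0.046). *Hsp90aa1* stood at 135, 155 and 123 FPKM in WT PBS, at 141, 89.2 and 131 FPKM in *Sema6d*-/- PBS, at 129, 179 and 143 FPKM in WT IL-33 and at 137, 145 and 165 FPKM in *Sema6d*-/- IL-33. Its groups overlapped, with an averaged difference of 0.23 (−0.09 to 0.54, limma adjusted p = 0.40), or 0.126 without *Sema6d*-/- PBS replicate 2. The level of *Hsp90ab1* over that of *Hsp90aa1* was 5.13 to 7.31 in the PBS libraries and 3.38 to 4.78 in the IL-33 libraries, without overlap, a ratio that was computed after the values were seen and was not tested.

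*Hspd1* and *Hspe1* encode the mitochondrial chaperonin HSP60 and its lid HSP10 and are arranged head to head on chromosome 1. *Hspd1* read 53.3, 61.7 and 50.6 FPKM in the WT PBS libraries and 73.7, 71.2 and 98.3 FPKM in those of *Sema6d*-/- with PBS. It read 86.7, 87.0 and 62.2 FPKM in the WT IL-33 libraries and 67.3, 52.0 and 63.0 FPKM in those of *Sema6d*-/- with IL-33. The IL-33 libraries were above the PBS libraries in WT, by a narrow margin (62.2 against 61.7 FPKM), and below them in *Sema6d*-/-. *Hspe1* stood at 114, 82.3 and 99.2 FPKM in WT PBS, at 159, 158 and 121 FPKM in *Sema6d*-/- PBS, at 143, 143 and 125 FPKM in WT IL-33 and at 124, 114 and 142 FPKM in *Sema6d*-/- IL-33. WT PBS was the lowest group for both genes and overlapped none of the *Sema6d*-/- PBS and WT IL-33 libraries. The IL-33 difference of *Hspd1* was 0.49 (0.02 to 0.96) in WT and −0.40 (−0.87 to 0.07) in *Sema6d*-/-, and the interaction was −0.89 (−1.56 to −0.23), which did not pass over all genes (limma adjusted p = 0.80). For *Hspe1* the differences were 0.48 in WT and −0.20 in *Sema6d*-/-, with an interaction of −0.68 (−1.24 to −0.12, limma adjusted p = 0.84). In *Sema6d*-/- the difference of *Hspd1* was −0.26 without PBS replicate 3, and that of *Hspe1* was −0.33 without PBS replicate 3 and −0.125 without IL-33 replicate 2. These comparisons share the same PBS and IL-33 libraries, so the values of the 2 genes are given side by side only.

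**Figure D2:**
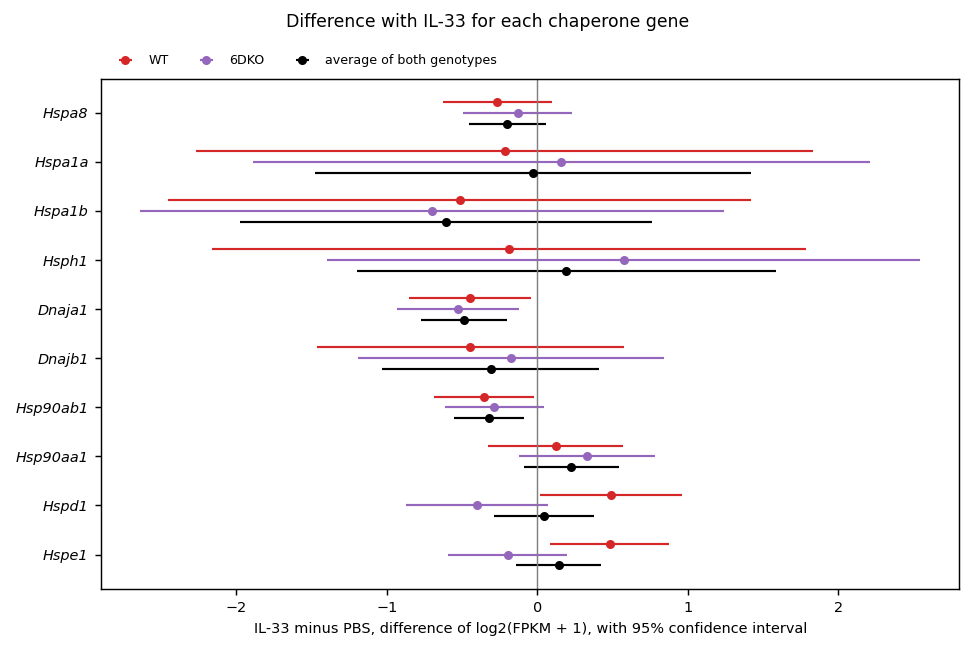
Difference of log2(FPKM + 1) between IL-33 and PBS (horizontal axis) for the 10 chaperone genes (rows), in WT, in *Sema6d*-/- (6DKO) and averaged over both, with points for estimates and bars for 95% confidence intervals of limma's fit. The averaged intervals of *Dnaja1* (−0.78 to −0.20) and *Hsp90ab1* (−0.55 to −0.09) exclude 0, and those of *Hspa1a*, *Hspa1b* and *Hsph1* are the widest.

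The share of chaperones called was near or under that of all genes in each comparison. In limma's fit, 0 of 10 members were called for IL-33 in WT, where 4.35% of 11451 genes were, and 4 of 10 had an unadjusted p under 0.05, as 17.8% of all genes did. In *Sema6d*-/- it was 0 of 10 against a background of 3.05%, with 1 at the unadjusted threshold (15.4% of all genes). Averaged over the genotypes it was 1 of 10, *Dnaja1*, against 9.06%, with 2 at the unadjusted threshold (22.8% of all genes), and both shares are near those of all genes. Between the genotypes 0 of 10 were called by limma under IL-33 (0.00873% of all genes, with 0 at the unadjusted threshold against 1.96%) and 0 of 10 under PBS (0.611%, with 3 at the unadjusted threshold against 13.0%). For the interaction it was 0 of 10 against 0.0262%, with 2 at the unadjusted threshold against 5.69%. The fit gives a gene the same spread in all groups, although the PBS libraries varied more than the IL-33 libraries. Intervals and p-values between the genotypes thus tend to be too large under IL-33 and too small under PBS. From only the groups compared, 1069 genes were at limma's unadjusted threshold under IL-33, in place of 225. Under PBS it was 525 in place of 1489.

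Counted by groups that do not overlap, 4 of 10 members were separated by IL-33 in WT, against 25.0% of all genes, and 2 of 10 in *Sema6d*-/-, against 22.6%. Between the genotypes it was 0 of 10 under IL-33, against 14.2%, and 3 of 10 under PBS, against 8.58%. The 3 under PBS were *Hspa8*, lower in *Sema6d*-/-, and *Hspd1* and *Hspe1*, higher. The exact permutation p between the genotypes under IL-33 was 0.2 or more for each member, where 3 against 3 libraries cannot give less than 0.1. The median difference over the 10 members was −0.24 for IL-33 in WT, −0.19 in *Sema6d*-/- and −0.11 averaged, beside 0.16, 0.14 and 0.16 over all genes. Quantile normalization moved the averaged median of all genes by −0.19, and of the genes called 50.4% were then higher with IL-33, against 65.2% without it. Relative to the median of all genes *Dnaja1* stood at −0.65 and *Hsp90ab1* at −0.48. That averaged median was 0.35 with pseudocount 0.1, 0 with no filter and −0.03 with quantile normalization. It takes in genes of lower level than the members, which were listed at 0 more often under PBS. Between the genotypes the member median was 0.08 under IL-33 and 0.19 under PBS, beside 0.005 and 0.002 over all genes, and for the interaction 0.10 beside −0.02. The member medians for IL-33 lay between −0.34 and −0.08 in WT, between −0.46 and −0.07 in *Sema6d*-/- and between −0.415 and −0.015 averaged in fits that left out a library. Those between the genotypes rested on single libraries: without *Sema6d*-/- PBS replicate 1 the PBS median was −0.12, without WT PBS replicate 1 it was −0.006, without *Sema6d*-/- PBS replicate 3 it was 0.53, and without *Sema6d*-/- IL-33 replicate 3 the IL-33 median was −0.14.

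Lists of genes that work with these chaperones were set beside them in the averaged IL-33 comparison, where 9.06% of all genes were called and 22.8% had an unadjusted p under 0.05. Of 24 other cytosolic HSP70, HSP110, HSP40 and small heat shock protein genes, 20 of which averaged 0.5 FPKM or more, and which include the collagen chaperone gene *Serpinh1* of the endoplasmic reticulum at no more than 0.125 FPKM, 0 passed in limma's fit (3 unadjusted). The count was 0 of 15 mitochondrial chaperone and protease genes (2 unadjusted), 0 of 14 subunits of the cytosolic chaperonin TRiC and prefoldin (3 unadjusted) and 0 of 5 genes of heat shock factors and their binding protein (1 unadjusted). Of these 5 only 3 averaged 0.5 FPKM or more, *Hsf5* was listed at 0 in all libraries and *Hsf4* did not exceed 0.307 FPKM. Over the alternatives these 4 counts ran from 0 to 2, from 0 to 1, from 0 to 2 and from 0 to 2. *Hsf1*, the main factor of the heat shock response, read 48.8, 43.7 and 48.9 FPKM in the WT PBS libraries and 27.4, 26.2 and 26.9 FPKM in the WT IL-33 libraries. In *Sema6d*-/- it stood at 60.6, 35.6 and 60.0 FPKM with PBS and at 41.9, 23.2 and 44.5 FPKM with IL-33. *Hsf1* was lower with IL-33 without overlap in WT and overlapped in *Sema6d*-/-, with an averaged difference of −0.65 (limma adjusted p = 0.078) and an interaction of 0.28 (limma adjusted p = 0.93), which was 0.03 without *Sema6d*-/- PBS replicate 2 and 0.57 without *Sema6d*-/- IL-33 replicate 2. *Hsf2* was listed at 0 in 3 PBS libraries, with an averaged difference of 1.44 (limma adjusted p = 0.26), or 3.06 with pseudocount 0.1. Without *Sema6d*-/- PBS replicate 2 both *Hsf1* (−0.78, limma adjusted p = 0.027) and *Hsf2* (2.13, limma adjusted p = 0.012) passed.

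Of 24 co-chaperones of HSP70 and HSP90, 2 fell and 0 rose in the averaged comparison, a share near the 9.06% of all genes. *Stub1*, the ubiquitin ligase CHIP that acts on chaperone-bound clients, read 91.2, 146 and 77.4 FPKM in the WT PBS libraries and 80.7, 62.5 and 80.6 FPKM in the WT IL-33 libraries. In *Sema6d*-/- it stood at 126, 159 and 129 FPKM with PBS and at 62.2, 88.1 and 66.3 FPKM with IL-33. Its averaged difference was −0.69 (limma adjusted p = 0.034), with overlap in WT and none in *Sema6d*-/-, and its interaction was −0.49 (limma adjusted p = 0.89), or −0.75 without WT PBS replicate 2 and −0.30 without WT PBS replicate 3. *Fkbp4*, an immunophilin partner of HSP90, stood at 117 to 148 FPKM in the PBS libraries and at 80.3 to 106 FPKM in the IL-33 libraries, without overlap, a difference of −0.48 (limma adjusted p = 0.030). Of the 14 endoplasmic reticulum chaperones 1 rose and 1 fell. Over the alternatives 0 to 3 co-chaperones and 0 to 2 of these chaperones were called. *Calr*, the lectin chaperone calreticulin, fell by 0.72 (limma adjusted p = 0.024), and *Hspa13*, an HSP70-like ATPase of microsomes, rose by 1.40 (limma adjusted p = 0.036) from low levels of 0 to 6.19 FPKM under PBS. *Hspa13* was also the 1 gene of this list called in *Sema6d*-/- (2.30, limma adjusted p = 0.038), where its PBS libraries read 0.790, 0 and 2.16 FPKM, and this call was lost in 6 of 9 other ways of processing the values and in 8 of 12 fits that left out a library. It was not called in WT (0.51, limma adjusted p = 0.68), and its interaction of 1.80 did not pass (limma adjusted p = 0.86). With pseudocount 0.1 its differences were 2.16 averaged and 3.74 in *Sema6d*-/-, with an interaction of 3.17. The 4 averaged calls were each lost in 3 or 4 of 8 other ways of processing the values and in 3 to 6 of 12 fits that left out a library. *Hspa5*, the endoplasmic reticulum HSP70 BiP, named after its values were seen, was the 1 gene of this list called in WT (−0.86, limma adjusted p = 0.020) and was not in *Sema6d*-/- (−0.03, limma adjusted p = 0.98, and −0.075 to 0.073 without a library), with an interaction of 0.83 that did not pass (limma adjusted p = 0.68). The WT call was lost in 3 of 9 other ways of processing and in 3 of 12 fits that left out a library.

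Immediate early genes, which cell isolation is known to switch on together with inducible chaperones, were also counted, without a test between lists. Of 15 such genes 12 fell and 0 rose with IL-33 in the averaged comparison (9.06% of all genes), 12 fell in WT (4.35%) and 9 in *Sema6d*-/- (3.05%), and their summed level was 12740 to 21100 FPKM in the PBS libraries and 6951 to 8825 FPKM in the IL-33 libraries. The largest falls were in *Atf3* (−1.95, limma adjusted p = 8.46e-05), *Zfp36* (−1.54, limma adjusted p = 0.000145), *Egr1* (−1.49, limma adjusted p = 0.000143) and *Nr4a1* (−1.33, limma adjusted p = 6.03e-05), and all 4 were lower in each IL-33 library than in each PBS library. The list median was −1.33 in WT and −0.85 in *Sema6d*-/-. The interaction passed for 0 of the 15 genes in limma's fit, with 8 at an unadjusted p under 0.05 (5.69% of all genes) and a median of 0.49. *Atf3* differed by −2.53 in WT and −1.37 in *Sema6d*-/- (interaction 1.16, limma adjusted p = 0.73), and *Zfp36* by −2.04 and −1.05 (interaction 0.99, limma adjusted p = 0.73). *Egr1* differed by −1.37 and −1.60 (interaction −0.22, −0.43 to −0.07 without a library, limma adjusted p = 0.92) and *Nr4a1* by −1.27 and −1.40 (interaction −0.13, −0.315 to −0.0051 without a library, limma adjusted p = 0.94). The calls of *Atf3* and *Zfp36* in *Sema6d*-/- were each lost in 4 of 9 other ways of processing the values, and in 3 and 6 of 12 fits that left out a library. Over these alternatives 9 to 13 genes of the list were called in WT and 2 to 11 in *Sema6d*-/-. *Jun*, named after its values were seen, was the 1 gene of the list called between the genotypes under PBS (0.611% of all genes). It stood at −0.94 in *Sema6d*-/- (limma adjusted p = 0.039), with an interaction of 0.69 that did not pass (limma adjusted p = 0.81). This call was lost in 6 of 9 other ways of processing and in 10 of 12 fits that left out a library. In that comparison 7 of the 15 genes had an unadjusted p under 0.05 (13.0% of all genes). The list median there was −0.47, beside 0.002 over all genes, while *Egr1* was higher in *Sema6d*-/- (0.61, limma adjusted p = 0.28). The averaged list median was −1.13, beside −0.11 over the chaperones and 0.16 over all genes. Among genes of other cells, *Cpa3* of the mast cell list stood at 42.9 to 89.3 FPKM with PBS and at 17.8 to 40.0 FPKM with IL-33. *Epcam* of the epithelial list stood at 16.4 to 54.0 and at 0 to 8.71 FPKM, and neither gene overlapped between the treatments. *Cd79b* of the B cell list went the other way, at 0 to 8.90 and 2.76 to 26.8 FPKM. These are single genes and do not stand for their lists. Without *Epcam* the epithelial list summed to 0 to 49.6 FPKM in the PBS libraries and to 6.35 to 107 FPKM in the IL-33 libraries. Without *Cpa3* the mast cell list summed to at most 5.90 FPKM in any library. The part of cell isolation or of other cells in any of these values was not tested.

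The 8 genes off these lists whose levels over the 12 libraries were most like the mean of the chaperones were *Caprin1* (Pearson r = 0.81), *Sharpin* (0.81), *Snhg8* (0.77), *Rapgef6* (0.76), *Trim28* (0.75), *Mir6244* (0.75), *Chmp3* (0.75) and *Cr1l* (0.73), out of 3690 genes averaging 20 FPKM or more. That mean mostly follows *Hspa1a*, *Hspa1b* and *Hsph1*, whose SD over the libraries was 1.09 to 1.13 on the log2 scale, against 0.23 to 0.32 for the 6 most abundant members. These r describe 12 libraries that also differ in depth and precision.

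Several of these transcripts share sequence with other genes, which limits how far the level of a single gene can be read. Of the distinct 75-base stretches in *Hspa1a* transcripts, the length of the reads, 61.7% also occur in transcripts of other genes, most of them in *Hspa1b* (52.7%), and of those in *Hspa1b* 55.8% occur in *Hspa1a*. The level of *Hspa1b* over that of *Hspa1a* ranged from 2.09 to 6.89 over the libraries, and how reads were divided between the 2 genes is not given in the sources used here, so their separate values are uncertain. *Hspa8* (33.0%) shares most with *Gm15459*, *Hsp90aa1* (42.8%) with *Gm12346* and *Hspd1* (31.0%) with *Hspd1-ps3*, so their levels are uncertain to that extent, *Dnaja1* shares 18.4% and *Hspe1* 14.6%, whereas *Hsp90ab1* shares 0.537% and *Hsph1* and *Dnajb1* share 0. The annotated exons of *Hspd1* (chr1:55077835-55088243, minus strand) and *Hspe1* (chr1:55088132-55091307, plus strand) overlap, and the labels name a library kit that does not mark strand while the methods name a stranded one, so reads in the overlap cannot be assigned with certainty. The same holds for *Dnaja1*, whose exons overlap those of *Smu1* and *Gm6297* on the other strand, and for *Hspa1a*, which overlaps *Gm20481* on the other strand.

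Heat shock factors bind repeats of the letters GAA and TTC spaced by 2 bases, so the promoters of the members were searched for GAANNTTC and TTCNNGAA, each of which reads the same on both strands. RefSeq promoter windows on GRCm38.p6, from 250 bases before to 50 after a transcript start, were matched for 7 of the 10 members, in 12 windows; the other members are *Hspa8*, *Hsp90aa1* and *Hsp90ab1*. GAANNTTC occurs in 7.86% of all 32851 windows, TTCNNGAA in 8.52% and either of them in 15.1%. A match was found in 7 of the 12 member windows, belonging to 6 of the 7 genes, and none in the 2 windows of *Dnajb1*. Windows of *Hsph1* overlap each other, as do 2 of *Dnaja1*, and both of *Hspd1* overlap that of *Hspe1*, so some matches are counted in more than 1 window and the 7 cannot be set against the share of all windows. Capitals mark the matched letters in 30-base stretches of the pair *Hspa1a* and *Hspa1b*, which were both highest in the same library and whose windows share 296 of 300 bases, for a stretch in promoter windows of both *Hspd1* and *Hspe1*, and for *Dnaja1*, the 1 member called:
Hspa1a: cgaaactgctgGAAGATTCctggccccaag
Hspa1b: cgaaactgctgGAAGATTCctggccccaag
Hspe1: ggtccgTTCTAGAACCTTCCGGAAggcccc
Dnaja1: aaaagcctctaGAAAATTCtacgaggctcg
The stretches lie on GRCm38.p6 at chr17:34972242-34972271 (*Hspa1a*, minus strand), chr17:34959324-34959353 (*Hspa1b*, minus strand), chr1:55088053-55088082 (*Hspe1*, plus strand) and chr4:40722333-40722362 (*Dnaja1*, plus strand). In the *Hspe1* stretch 3 matches overlap in a run of 18 bases, and the same bases on the other strand are in a promoter window of *Hspd1* and overlap an exon annotated for *Hspd1*. The *Dnaja1* stretch overlaps exons annotated for *Dnaja1* and *Gm6297*, and the *Hspa1a* and *Hspa1b* stretches overlap no annotated exon. A match describes these letters only and shows neither binding nor control.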

How the data were processed

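The authors deposited FPKM values for 24346 gene symbols in each of 12 libraries, from single-end reads of 75 bases aligned to mm10. The submitters' processing notes name TopHat2 2.1.1, Bowtie2 and Cuffdiff 2.2.1, while the methods name Cuffnorm. The kit also differs between the labels (SMART-Seq HT with Nextera) and the methods (TruSeq Stranded). Read totals are not part of FPKM, so no counting intervals are given.

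Groups were taken from the labels. Differences were fitted with limma 3.58.1 in R 4.3.3 (lmFit, contrasts.fit, eBayes with trend) on log2(FPKM + 1), with 4 group means and 8 residual degrees of freedom, over the 11451 genes that averaged 0.5 FPKM or more, or stood on a gene list. P-values were two-sided and Benjamini-Hochberg adjusted over all genes tested, with 0.05 as the threshold. Adding 1 makes differences of low genes smaller than their ratio of FPKM. Single members were also tested with two-sided exact permutation tests. The fit was tested on simulated data in which each gene had the same spread in all groups. That does not check the fit for the real groups, whose spread was wider under PBS than under IL-33. Python 3.11.15, numpy 2.4.6, pandas 2.3.3 and matplotlib 3.10.9 were used for the rest.

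The members and gene lists were chosen with earlier results of these data known. Named partner genes are, for each pathway list, up to 4 with the largest difference among those called in the averaged IL-33 comparison, with *Hsf1* and *Hsf2* whatever their values, and the 8 genes off the lists most like the members' mean; and for each cell type list its most abundant gene. *Sema6d*, *Hspa5* and *Jun* and the other listed genes named (*Gata3*, *Il1rl1*, *Cd4*, *Cd3e*, *Cd6*, *Lyz2*, *Ear2*, *Csf1r*, *Sftpc*, *Hsf4*, *Hsf5* and *Serpinh1*) were picked after values were seen. Over the 12 libraries the lists of other cells summed to at most 26.9 (B cell, led by *Cd79b*), 7.93 (neutrophil, *Mmp9*), 1.99 (eosinophil, *Ccr3*), 95.2 (mast cell and basophil, *Cpa3*), 109 (epithelial, with *Epcam* at up to 54.0), 23.1 (endothelial, *Pecam1*), 4.51 (mesenchymal, *Col3a1*) and 45.4 FPKM (erythroid, *Hba-a1*). Alternatives were another pseudocount (0.1), no filter and a filter at 2 FPKM, quantile normalization, median ratio scaling, eBayes without trend, array weights, a block for the replicate number, only the groups compared, and leaving out each library. Gene positions are from GENCODE vM21 (GRCm38) and promoters from RefSeq (GRCm38.p6).
In the averaged IL-33 comparison (9.06% of all genes called) 4 of 14 ILC2 genes fell and 1 rose, with 1 to 7 called over the alternatives. Of the other cell lists 1 gene rose in the B cell and in the macrophage list, 1 fell in the mast cell, epithelial and erythroid lists, and 0 passed in limma's fit in the T cell, neutrophil, eosinophil, NK cell, endothelial and mesenchymal lists (4, 1, 1, 3, 2 and 0 of whose genes averaged 0.5 FPKM or more), with 0 at an unadjusted p under 0.05 except 1 in the eosinophil list. Over the alternatives 0 to 2 genes of any of these lists were called.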

Additional observations from a re-analysis of the deposited data

Results flagged for a closer look

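The IL-33 libraries lay on opposite sides of the PBS libraries for *Hspd1* in the 2 genotypes: every WT IL-33 library was above every WT PBS library, and every *Sema6d*-/- IL-33 library was below every *Sema6d*-/- PBS library. In WT the margin was 62.2 against 61.7 FPKM. Neither difference passed alone (limma adjusted p = 0.26 in WT and 0.41 in *Sema6d*-/-). The interaction of genotype and treatment was −0.89 on the log2(FPKM + 1) scale, with a limma adjusted p of 0.80 over all 11451 genes, so the difference between the genotypes did not pass the test. It lay between −1.05 and −0.75 in fits that left out each library in turn, and none of them passed.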

How the results depend on the processing

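Of the member differences for IL-33 recomputed under other processing, 254 kept their sign and side of the threshold, 4 lost a call and 2 changed sign. Of those recomputed without a library, 335 kept both, 8 lost a call, 1 gained one and 16 changed sign. The cause was not tested for any change below, apart from fewer libraries or another number of genes tested.

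The number of members called in the averaged IL-33 comparison (1) was 0 with no filter, with eBayes without trend and with array weights, and 0 to 1 without a library. With array weights the difference of *Dnajb1* in *Sema6d*-/- was 0.004 and the averaged difference of *Hspa1a* 0.045, both above 0. Genes called for IL-33 numbered 225 to 706 in WT (498) and 157 to 507 in *Sema6d*-/- (349) without a library, and 224 in *Sema6d*-/- with array weights.

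Genes called between the genotypes under IL-33 (1) numbered 2 with pseudocount 0.1, 5 with no filter, 0 with quantile normalization, 61 with array weights, 0 from only the groups compared and 0 to 4 without a library. Under PBS (70) they numbered 25 with no filter, 36 with quantile normalization, 1 with array weights, 1 from only the groups compared and 20 to 206 without a library. For the interaction (3) they numbered 5 with pseudocount 0.1, 7 without trend, 1 with array weights and 0 to 30 without a library. The member median ranged without a library from −0.14 to 0.16 between the genotypes under IL-33, from −0.12 to 0.53 under PBS and from −0.39 to 0.29 for the interaction.

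Without a library the IL-33 difference in WT ranged from −0.59 to 0.20 for *Hspa1a*, from −0.012 to 0.225 for *Hsp90aa1* and from −0.417 to 0.016 for *Hsph1*. In *Sema6d*-/- it ranged from −0.78 to 0.74 for *Hspa1a*, from −0.269 to 4.1e-05 for *Hspa8*, from −0.83 to 1.42 for *Hsph1* and from −0.66 to 0.36 for *Dnajb1*. The averaged difference ranged from −0.50 to 0.26 for *Hspa1a* and from −0.51 to 0.61 for *Hsph1*.

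With a replicate block, 0 members were called in the averaged comparison (*Dnaja1* −0.49, limma adjusted p = 0.076, against 0.030 to 0.14 over all its alternatives). Genes called numbered 231 for IL-33 in *Sema6d*-/-, 8 between the genotypes under PBS and 1 for the interaction. Same-numbered libraries of different groups did not deviate together (18 pairs, r between −0.047 and 0.045, 0 above 0.1). No strong effect shared by replicate number was thus seen, which does not exclude a weaker one. Read depth is not part of FPKM, and a low gene listed at 0 cannot be told from one not sampled.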
